A study of Mus musculus with 4 samples.

Results

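The genes described here encode nuclear subunits and assembly factors of oxidative phosphorylation, the process by which mitochondria pass electrons along the respiratory chain and make ATP. A gene was included if a probe set carried a single symbol that began with Nduf followed by a, b, c, s or v, with Uqcr, with Cox and a digit from 4 to 8, or with Atp5, or that was Sdha, Sdhb, Sdhc or Sdhd. This gave 90 of the 18193 genes on the array. Within them, 3 isoforms of striated muscle, Cox6a2, Cox7a1 and Cox8b, were set against the other 87. Each gene was read from its probe set with the highest mean log2 level over the 4 arrays.

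Lung RNA was measured on Affymetrix arrays, 1 array per sample. The 2 IKKa floxed samples carried a floxed allele of the kinase IKKα, and the 2 wild type samples did not. All mice were of the B6/J strain, all had adenovirus with Cre recombinase put into the trachea, and all lungs were taken 4 months later, so both groups had met Cre. The labels do not give the zygosity of the allele, the promoter that drives Cre or the cells it reached. They also do not say whether the samples of a group are separate animals, so each p-value speaks to the spread among these 4 arrays alone, and that spread may be technical.

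Electrons enter the chain at complex I (NADH dehydrogenase) or complex II (succinate dehydrogenase) and pass through complex III to complex IV (cytochrome c oxidase), and complex V (ATP synthase) uses the resulting proton gradient. Most subunits are made in every cell with mitochondria. Some subunits of complex IV come as pairs, with one isoform in most tissues and another in heart and skeletal muscle, and Cox7a1 and Cox8b are also abundant in brown fat. In mice, heart muscle cells extend into the walls of the pulmonary veins.

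Array medians were 32.2 and 32.1 in floxed and 33.8 and 34.3 in wild type lungs. Of 12 markers of lung tissue, 9 lay above 0, 3 lay below and none passed the test (median log2 fold change 0.16). Surfactant protein C (Sftpc) was bright, with 13618 and 10831 in floxed lungs, against 9204 and 8743 in wild type lungs, while the lung transcription factor Nkx2-1 was dim, with 21.8 and 22.9 in floxed lungs, against 32.1 and 18.6 in wild type lungs. The groups also differed in ways that no label gives. Xist, the RNA of the inactive X chromosome, had 4246 and 4629 in floxed lungs, against 31.8 and 22.9 in wild type lungs, while the Y-linked Eif2s3y, Uty and Kdm5d fell in floxed lungs, so genotype and sex pattern cannot be told apart. The 3′ to 5′ ratio of Gapdh, which rises as RNA degrades, was 1.44 and 1.68 in floxed and 1.18 and 1.10 in wild type lungs. The same ratio of actin was 2.67 and 2.77 in floxed and 2.65 and 2.46 in wild type lungs, with a narrower gap between the groups. The part of RNA quality in the differences below was not tested.

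Cox7a1 and Cox8b, both muscle isoforms of complex IV, fell in floxed lungs, and no other member passed the test. Of 88 members that passed the filter on low values, 2 changed, and 1.73% of all 12735 genes tested did. Both were lower, as were 0.73% of all genes, and 0 were higher, as were 0.997% of all genes, by limma at an adjusted p under 0.05. At an unadjusted p under 0.05 there were 7 members, a smaller share than the 14.3% of all genes. The median log2 fold change was 0.065 over the 85 members tested other than the muscle isoforms, and 1.7e-05 over all genes.

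Cox8b, the muscle form of the small subunit 8, had an intensity of 22.2 and 27.9 in floxed lungs, against 81.5 and 114 in wild type lungs. Both floxed arrays lay far below both wild type arrays. The gene was 2.75-fold lower (log2 fold change -1.46 ± 0.17 SE, limma adjusted p = 0.0106). Cox7a1, the muscle form of subunit 7a, had 64.04 and 57.6 in floxed lungs, against 134 and 153 in wild type lungs. These groups did not overlap either, and the arrays of each group lay close together. Cox7a1 was 2.07-fold lower (log2 fold change -1.05 ± 0.13 SE, limma adjusted p = 0.0134), and without wild type replicate 2 its limma adjusted p was 0.0502. With no filter on low values, when all 18193 genes were tested, both missed the threshold (limma adjusted p = 0.0671 for Cox8b and 0.0697 for Cox7a1). Fold changes are on the log2(intensity + 16) scale, which understates the change of a dim gene such as Cox8b.

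Cox6a2, the muscle form of subunit 6a, did not pass the test. Its intensity was 194 and 151 in floxed lungs, against 252 and 285 in wild type lungs. The groups did not overlap, but the floxed arrays lay further apart than for Cox7a1. The log2 fold change was -0.60 ± 0.15 SE (95% interval -0.96 to -0.24, limma adjusted p = 0.138). A second probe set of the gene, with 56.9 and 55.4 in floxed lungs, against 148 and 136 in wild type lungs, gave a log2 difference of -1.13. With the mean of both probe sets the gene passed (log2 fold change -0.86, limma adjusted p = 0.0188).

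**Figure D1:**
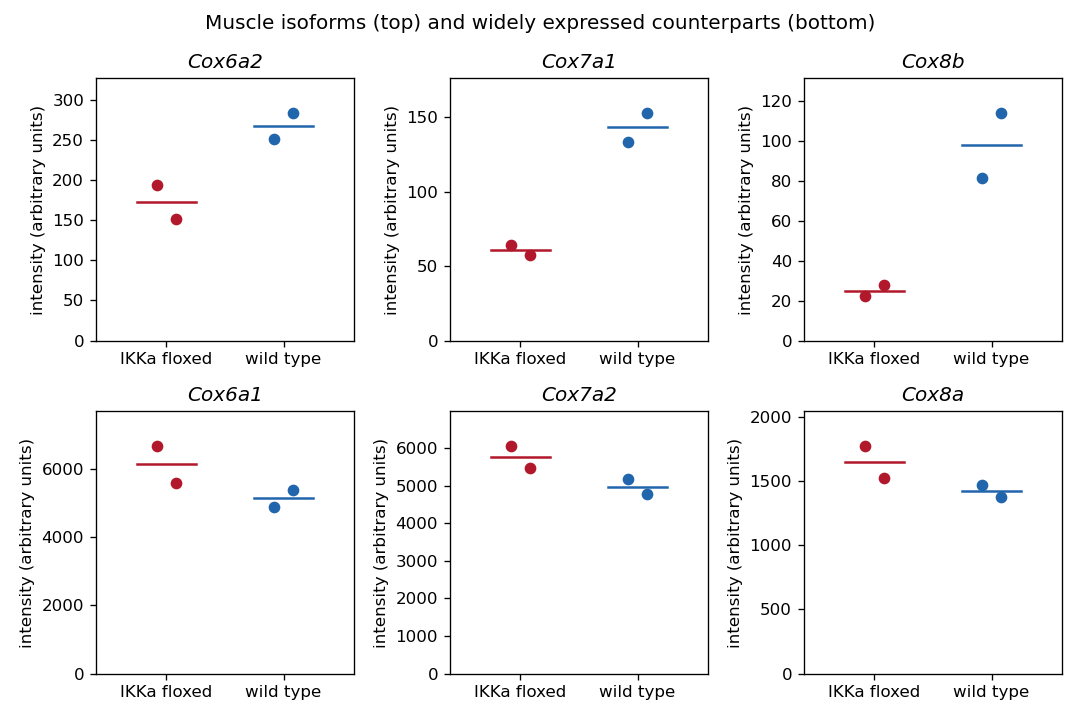
Intensity of each array (points) and group mean (lines) for the 3 striated muscle isoforms in the top row and their widely expressed counterparts in the bottom row, IKKa floxed left and wild type right, each panel with its own axis from 0. The floxed points lie below the wild type points in all 3 top panels and above them in all 3 bottom panels.

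The counterparts that fill the same positions of complex IV in most tissues did not pass the test, and their values lay on the other side of 0. Cox6a1 had 6677 and 5572 in floxed lungs, against 4881 and 5378 in wild type lungs (log2 fold change 0.25 ± 0.14 SE, limma adjusted p = 0.491). Cox7a2 had 6071 and 5483 in floxed lungs, against 5174 and 4774 in wild type lungs (log2 fold change 0.21 ± 0.13 SE, limma adjusted p = 0.511). For both, the lower floxed array was above the higher wild type array. Cox8a had 1774 and 1520.3 in floxed lungs, against 1464 and 1371 in wild type lungs, again without overlap (log2 fold change 0.21 ± 0.13 SE, limma adjusted p = 0.541). Another bright probe set of Cox8a gave a log2 difference of 0.14. A dim one, with 5.98 and 14.7 in floxed lungs, against 16.5 and 13.1 in wild type lungs, gave -0.24. The 95% intervals were -0.084 to 0.59 for Cox6a1, -0.086 to 0.52 for Cox7a2 and -0.10 to 0.53 for Cox8a, which hold both small falls and moderate rises. Quantile normalization gave log2 fold changes of 0.072 for Cox6a1, 0.048 for Cox7a2 and 0.16 for Cox8a. Without floxed replicate 1 they were 0.12, 0.14 and 0.10, and with the mean of all probe sets, the dim one included, Cox8a had 0.037.

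Each muscle isoform was then set against its counterpart on the same array, which compares changes and not levels. The log2 fold change of Cox8b minus that of Cox8a was -1.67. For Cox7a1 minus Cox7a2 the difference was -1.27, and for Cox6a2 minus Cox6a1 it was -0.85. In all 3 pairs both floxed arrays had a lower isoform value relative to the counterpart than both wild type arrays. The two-sided exact permutation p was 0.33 for each of the 3 pairs, and 0.33 after adjustment over them, the smallest that 2 arrays against 2 can give.

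All 3 muscle isoforms lie on chromosome 7 in the RefSeq annotation. So do 6 other members, among them Ndufc2 and Cox6b1, and none of these 6 passed the test (median log2 fold change 0.10). The promoter windows of the 2 called genes are shown beside those of the 3 counterparts, so that Cox7a1 and Cox8b can be compared in sequence with Cox7a2 and Cox8a. Cox6a2 is not shown. The windows come from RefSeq (build GRCm38.p6) and hold 250 bases before and 50 after the annotated start, 5′ to 3′ on the strand of the gene. Capitals mark matches on either strand to the E-box CANNTG, which muscle regulatory factors can bind, to CCGGAAG (GABP), or to GCGCA, any base and GCGC (nuclear respiratory factor 1). GABP and nuclear respiratory factor 1 are known as regulators of respiratory chain genes.
Cox7a1, chr7:30183921-30184220, plus strand: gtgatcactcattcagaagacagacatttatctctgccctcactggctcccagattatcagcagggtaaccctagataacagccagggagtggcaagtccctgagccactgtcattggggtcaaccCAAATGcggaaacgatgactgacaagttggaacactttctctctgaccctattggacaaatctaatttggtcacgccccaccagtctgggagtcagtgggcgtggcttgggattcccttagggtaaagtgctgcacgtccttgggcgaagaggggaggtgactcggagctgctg
Cox8b, chr7:140900397-140900696, minus strand: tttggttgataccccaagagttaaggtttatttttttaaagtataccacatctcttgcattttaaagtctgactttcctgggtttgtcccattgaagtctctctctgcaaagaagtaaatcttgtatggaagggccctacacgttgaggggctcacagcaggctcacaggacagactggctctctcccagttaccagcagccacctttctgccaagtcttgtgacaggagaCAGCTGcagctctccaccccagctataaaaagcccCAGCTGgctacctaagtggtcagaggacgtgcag
Cox6a1, chr5:115348909-115349208, minus strand: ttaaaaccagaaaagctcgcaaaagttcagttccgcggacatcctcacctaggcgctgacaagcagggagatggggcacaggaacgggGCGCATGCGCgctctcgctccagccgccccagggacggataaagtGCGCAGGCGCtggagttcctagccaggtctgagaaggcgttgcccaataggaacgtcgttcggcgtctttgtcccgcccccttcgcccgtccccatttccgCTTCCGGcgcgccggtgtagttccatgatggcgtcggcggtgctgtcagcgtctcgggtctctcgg
Cox7a2, chr9:79759804-79760103, minus strand: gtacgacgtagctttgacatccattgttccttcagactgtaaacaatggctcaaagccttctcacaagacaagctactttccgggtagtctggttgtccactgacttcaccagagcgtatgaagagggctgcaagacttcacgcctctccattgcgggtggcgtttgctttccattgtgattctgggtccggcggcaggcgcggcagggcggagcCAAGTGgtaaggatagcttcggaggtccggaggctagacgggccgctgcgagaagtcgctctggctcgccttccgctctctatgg
Cox8a, chr19:7217567-7217866, minus strand: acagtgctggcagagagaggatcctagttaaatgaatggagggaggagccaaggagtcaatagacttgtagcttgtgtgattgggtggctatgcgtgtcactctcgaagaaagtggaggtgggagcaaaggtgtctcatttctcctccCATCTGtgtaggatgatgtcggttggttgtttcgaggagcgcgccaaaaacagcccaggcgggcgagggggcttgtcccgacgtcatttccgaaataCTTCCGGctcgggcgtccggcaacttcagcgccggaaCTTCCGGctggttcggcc
No marked matches overlap. Cox8b holds 2 E-boxes, both with the letters CAGCTG, and Cox7a1, Cox7a2 and Cox8a hold 1 each, but 67.5% of the 77 windows of members other than the muscle isoforms and 72.3% of all 32851 windows hold one. Cox7a1, Cox8b and the counterpart Cox7a2 match neither the GABP nor the nuclear respiratory factor 1 letters, while Cox8a matches the first and Cox6a1 matches both. GABP letters occur in 24.7% of the other members' windows and 8.86% of all windows. Nuclear respiratory factor 1 letters occur in 23.4% and 4.60%. No window shown matches the MEF2 consensus, found in 0 of the 77 windows and 1.86% of all, or AANATGGC, the letters of YY1, found in 22.1% and 6.05%.

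The windows also differ in CpG dinucleotides. Cox8b has 2 and Cox7a1 has 7, whereas Cox8a has 19, Cox7a2 has 20 and Cox6a1 has 32. The windows of the other members hold 8 to 43, with a median of 20, against a median of 7 over all windows. Of the 90 members, 74 were found in the table. These are descriptions of sequence, and no methylation or binding was measured.

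Other isoforms with a restricted pattern did not pass the test. Ndufa4l2, a relative of the complex IV subunit Ndufa4 that is induced by hypoxia, had 5.37 and 24.1 in floxed lungs, against 36.8 and 35.2 in wild type lungs (log2 fold change -0.83 ± 0.27 SE, limma adjusted p = 0.238). Its floxed arrays lay wide apart, and without floxed replicate 2 its limma adjusted p was 0.00960 (log2 fold change -1.28). Cox4i2, the isoform of subunit 4 known from lung, had 39.6 and 37.1 in floxed lungs, against 43.6 and 30.4 in wild type lungs, so the groups overlapped (log2 fold change 0.047 ± 0.15 SE, limma adjusted p = 0.927). Cox4i1, the form found in most tissues, had 4742 and 4169.6 in floxed lungs, against 4061 and 3909 in wild type lungs (log2 fold change 0.16 ± 0.13 SE, limma adjusted p = 0.636). The testis isoforms Cox6b2 and Cox8c had log2 fold changes of -0.18 and 0.065 (limma adjusted p = 0.597 and 0.899). A second, dimmer probe set of Cox8c had 42.9 and 34.2 in floxed lungs, against 7.13 and 12.6 in wild type lungs, a log2 difference of 1.08. With the mean of both probe sets Cox8c had a log2 fold change of 0.57 (limma adjusted p = 0.132). A further testis isoform, Cox7b2, did not pass the filter on low values, with 4.50 and 8.57 in floxed lungs, against 9.60 and 2.69 in wild type lungs.

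**Figure D2:**
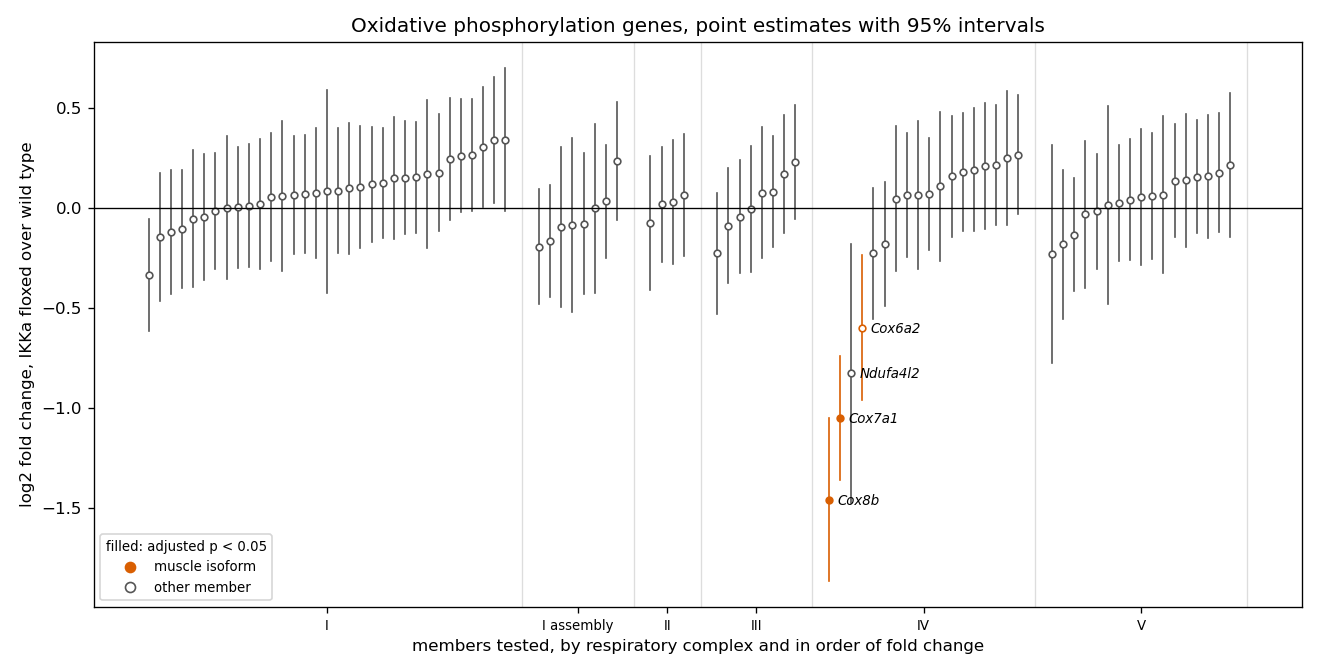
Log2 fold change, IKKa floxed over wild type, of the 88 members tested, grouped by respiratory complex and ordered within it, with 95% intervals as bars; orange marks the muscle isoforms and filled points an adjusted p under 0.05. Cox8b at -1.46 and Cox7a1 at -1.05 are the filled points, and all members other than these, Cox6a2 and Ndufa4l2 lie between -0.33 and 0.34.

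Of the 15 other genes placed with complex IV that were tested, 12 had a log2 fold change above 0 and none passed. The groups did not overlap for 11 of them, against 45.7% of all genes. Of these, 8 were higher in floxed lungs and 3 lower, against 23.5% and 22.2% of all genes. Cox6b1, which joins the monomers of the complex IV dimer, had 5382 and 5070.2 in floxed lungs, against 4571 and 4119 in wild type lungs (log2 fold change 0.27 ± 0.12 SE, limma adjusted p = 0.406). Each floxed array exceeded each wild type array.

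Complex I contributed 33 tested subunits, of which 26 lay above 0 and none passed (median log2 fold change 0.082). Ndufa13, also known as GRIM-19, had 3119.7 and 2498 in floxed lungs, against 2327 and 2081 in wild type lungs (log2 fold change 0.34 ± 0.15 SE, limma adjusted p = 0.374). Ndufb7, a subunit that faces the intermembrane space, had 1545 and 1313 in floxed lungs, against 1099.6 and 1146 in wild type lungs (log2 fold change 0.34 ± 0.13 SE, limma adjusted p = 0.316). Both separated the groups, as did 14 of the 33, with 12 higher and 2 lower, beside 45.7% of all genes tested, 23.5% higher and 22.2% lower. Ndufc2, an accessory subunit, had 4546 and 4383 in floxed lungs, against 4157 and 3757 in wild type lungs (log2 fold change 0.18 ± 0.12 SE, limma adjusted p = 0.584). Ndufb6, another accessory subunit, had 1209 and 1322 in floxed lungs, against 1513 and 1298 in wild type lungs, with overlap (log2 fold change -0.15 ± 0.13 SE, limma adjusted p = 0.684). Ndufa1 and Ndufb11, the members on the X chromosome, had log2 fold changes of 0.12 and 0.15 (limma adjusted p = 0.724 and 0.663) on the arrays that differed in Xist. Ndufb4 did not pass the filter on low values, with 10.98 and 10.99 in floxed lungs, against 14.00 and 8.92 in wild type lungs.

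Ndufa12, an accessory subunit added late in complex I assembly, had probe sets that pointed in opposite directions. The one used here had 1569 and 1511 in floxed lungs, against 1993 and 1901 in wild type lungs (log2 fold change -0.33 ± 0.12 SE, limma adjusted p = 0.264). Another had 1325 and 1289 in floxed lungs, against 2226 and 2191 in wild type lungs, a log2 difference of -0.75. This one has the highest mean before log transformation, and with it Ndufa12 passed the test (limma adjusted p = 0.0317). A further probe set had 1178 and 1063 in floxed lungs, against 928 and 916 in wild type lungs, a log2 difference of 0.27. For each of these 3 the groups did not overlap. The fourth was dim, with 24.5 and 33.2 in floxed lungs, against 18.2 and 28.5 in wild type lungs. The suffixes x_at and s_at of the first 3 mark probe sets whose probes can match further transcripts.

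Probe sets on both sides of 0 were common among the members, since 25 of 51 with more than 1 probe set had them. These were Atp5a1, Atp5c1, Atp5g2, Atp5h, Atp5j2, Atp5k, Cox5b, Cox8a, Ndufa10, Ndufa12, Ndufa7, Ndufab1, Ndufb2, Ndufb8, Ndufb9, Ndufc2, Ndufs4, Ndufs8, Ndufv1, Ndufv2, Sdha, Uqcr10, Uqcrb, Uqcrh and Uqcrq. Ndufa12 was the only one with a probe set at or below -0.25 and another at or above 0.25. In some of the others the opposite sign came from dim probe sets alone. Examples are Atp5g2, Cox5b, Cox8a and Ndufa10, where the negative sets had intensities of 25.1 or less on every array. The remaining 39 members had 1 probe set each, Cox7a1 and Cox8b among them, so their fall was read from a single probe set.

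**Figure D3:**
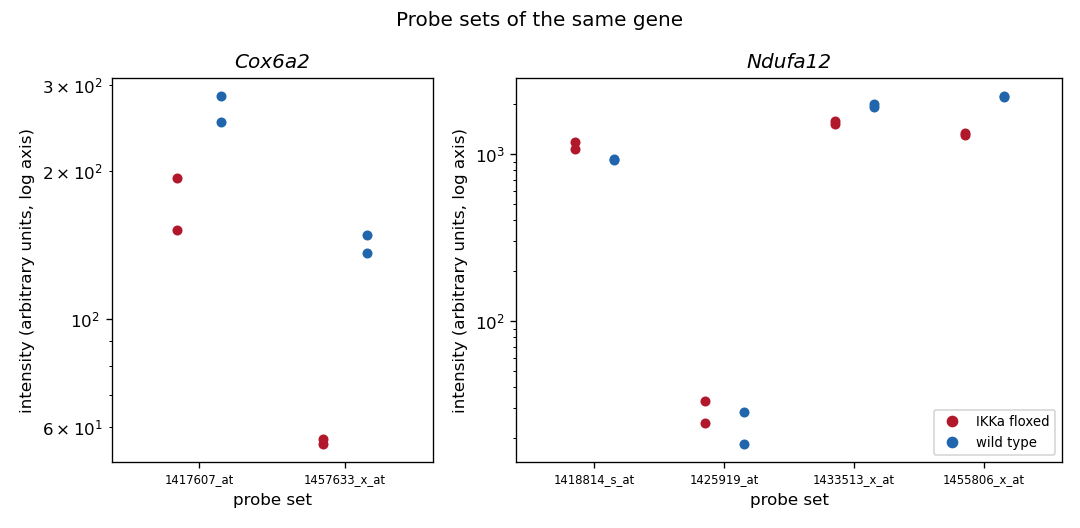
Intensity of each array on a log axis for the 2 probe sets of Cox6a2 (left panel) and the 4 of Ndufa12 (right panel), IKKa floxed in red left of wild type in blue. Both Cox6a2 sets are lower in floxed lungs, while the Ndufa12 sets run from a log2 difference of -0.75 to 0.27.

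The 8 assembly factors of complex I, which build the enzyme and are not part of it, had a median log2 fold change of -0.081, and 6 of them lay below 0. Ndufaf7, a methyltransferase, had 161 and 146 in floxed lungs, against 174 and 181 in wild type lungs (log2 fold change -0.19 ± 0.12 SE, limma adjusted p = 0.537). Ndufaf8 had 631 and 640.1 in floxed lungs, against 738 and 695 in wild type lungs (log2 fold change -0.17 ± 0.12 SE, limma adjusted p = 0.586). Ndufaf5, a partner of Ndufaf8 in assembly, lay on the other side of 0, with 90.2 and 102 in floxed lungs, against 81.9 and 76.6 in wild type lungs (log2 fold change 0.23 ± 0.12 SE, limma adjusted p = 0.466). These 3 of the 8 were the factors whose groups did not overlap, beside 45.7% of all genes tested. Ndufaf1 had a log2 fold change of 0.032 (limma adjusted p = 0.937).

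None of the 4 subunits of complex II separated the groups, beside 45.7% of all genes tested. The flavoprotein Sdha, which oxidises succinate, had 1444 and 1336 in floxed lungs, against 1342 and 1400.0 in wild type lungs (log2 fold change 0.019 ± 0.12 SE, limma adjusted p = 0.967). The log2 fold change of the iron-sulfur subunit Sdhb was 0.063, and those of the membrane anchors Sdhc and Sdhd were 0.029 and -0.076 (limma adjusted p = 0.878, 0.949 and 0.866). The 95% intervals of the 4 together spanned -0.41 to 0.37.

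In complex III, 4 of 8 subunits lay above 0 and 4 below, and none passed. Uqcrfs1, the Rieske iron-sulfur protein, had 867 and 755 in floxed lungs, against 939 and 961 in wild type lungs (log2 fold change -0.23 ± 0.13 SE, limma adjusted p = 0.492). Uqcrc1, a core protein, had 654 and 704 in floxed lungs, against 587 and 564 in wild type lungs (log2 fold change 0.23 ± 0.12 SE, limma adjusted p = 0.454). Both separated the groups, in opposite directions. In all, 5 of the 8 did, 3 higher and 2 lower, beside 45.7% of all genes tested, 23.5% higher and 22.2% lower. The other core protein, Uqcrc2, had a log2 fold change of -0.088, and Uqcrb, which takes part in ubiquinone binding, one of 0.17 (limma adjusted p = 0.801 and 0.598), Uqcrb having a log2 fold change of -0.068 after quantile normalization.

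The 17 members of ATP synthase had a median log2 fold change of 0.055, with 12 above 0 and none called. Atp5md, a small subunit of the membrane part, had 893 and 585 in floxed lungs, against 986 and 736 in wild type lungs (log2 fold change -0.23 ± 0.23 SE, limma adjusted p = 0.711). Here the arrays within a group lay further apart than the group means. The catalytic subunit Atp5b had 2907 and 2283 in floxed lungs, against 2746 and 3116 in wild type lungs (log2 fold change -0.18 ± 0.16 SE, limma adjusted p = 0.661). Atp5d of the central stalk and Atp5h of the peripheral stalk had log2 fold changes of 0.21 and 0.18 (limma adjusted p = 0.589 for both).

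The members other than the muscle isoforms differed together between the floxed arrays. Floxed replicate 1 exceeded floxed replicate 2 for 70 of 85, or 82.4%, and for 51.0% of all genes tested. Wild type replicate 1 exceeded wild type replicate 2 for 54 of 85, and for 6530 of all 12735 genes tested. Measured from the wild type mean of each gene, their median was 0.16 on floxed replicate 1 and -0.018 on floxed replicate 2. The positive median of 0.065 in the comparison rested on floxed replicate 1, since it was -0.018 without that array and 0.16 without floxed replicate 2. It was 0.0042 after quantile normalization. Of the 85, 59 lay above 0. The groups did not overlap for 39, with 29 higher and 10 lower, beside 45.7% of all genes tested in either direction, 23.5% higher and 22.2% lower.

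**Figure D4:**
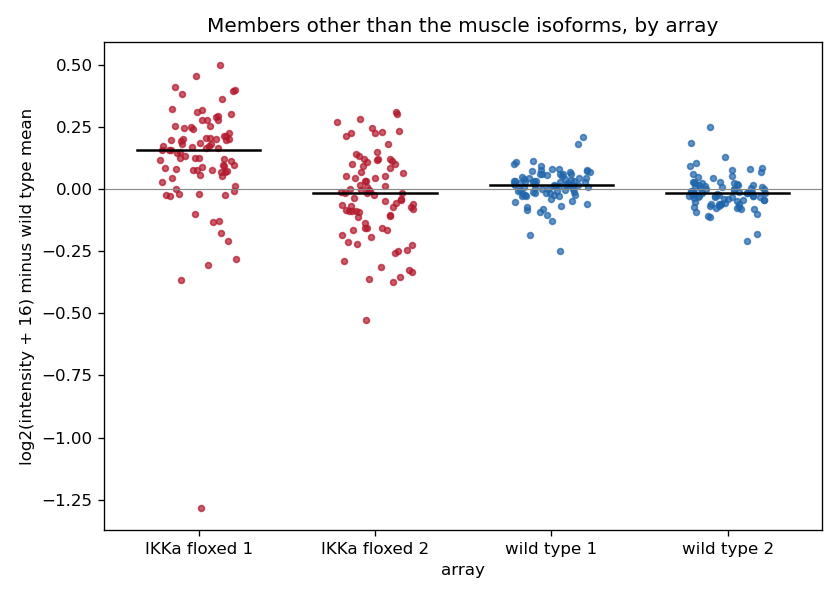
Difference of log2(intensity + 16) from the wild type mean of each gene for the 85 members tested other than the muscle isoforms, by array, IKKa floxed in red and wild type in blue, with the median as a black line; the wild type arrays mirror each other because their mean is the zero. Floxed replicate 1 has a median of 0.16 and floxed replicate 2 one of -0.018.

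Other genes of the pathway came from lists chosen beside the members, and no list of general mitochondrial genes held a gene called by limma, against 1.73% of all genes. Before adjustment, the limma p lay under 0.05 for 0 of 8 genes of the carriers, 2 of 28 of assembly and 2 of 12 of biogenesis. It did so for 0 of 14 of the citric acid cycle and 1 of 14 of fatty acid oxidation, against 14.3% of all genes tested. Of 8 genes for cytochrome c and carriers, Vdac2, a channel of the outer membrane, had a log2 fold change of 0.19 and the phosphate carrier Slc25a3 one of 0.10 (limma adjusted p = 0.565 and 0.750), Slc25a3 having a log2 fold change of -0.030 after quantile normalization. Of 28 assembly genes of complexes II to V, Tmem70, a factor for ATP synthase, had 269.7 and 259 in floxed lungs, against 332 and 347 in wild type lungs (log2 fold change -0.34 ± 0.12 SE, limma adjusted p = 0.254). Cox15, which makes heme A for complex IV, had 78.7 and 172 in floxed lungs, against 215 and 195 in wild type lungs (log2 fold change -0.73 ± 0.29 SE, limma adjusted p = 0.332). Its floxed arrays differed widely, and without floxed replicate 2 it passed (log2 fold change -1.22, limma adjusted p = 0.0142).

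Among 12 regulators of mitochondrial biogenesis, Nrf1, the nuclear respiratory factor, had 58.7 and 55.99 in floxed lungs, against 75.96 and 79.5 in wild type lungs (log2 fold change -0.35 ± 0.12 SE, limma adjusted p = 0.241). The coactivator Ppargc1a had 84.3 and 66.2 in floxed lungs, against 96.6 and 106 in wild type lungs (log2 fold change -0.37 ± 0.14 SE, limma adjusted p = 0.312). The groups overlapped for neither gene. Of 14 citric acid cycle genes (median log2 fold change 0.0036), the dehydrogenase subunits Dld and Idh3a had -0.17 and -0.23 (limma adjusted p = 0.567 and 0.602). Of 14 fatty acid oxidation genes (median -0.043), the dehydrogenases Acadm and Etfdh had -0.28 and -0.18 (limma adjusted p = 0.349 and 0.623). Subunits encoded by mitochondrial DNA are not analysed here.

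Of 10 energy genes typical of muscle that were tested, 5 were lower in floxed lungs, against 0.73% of all genes. None was higher, against 0.997%, and 5 did not pass (median log2 fold change -0.95). Myoglobin (Mb), which stores oxygen in muscle, had 8.80 and 6.81 in floxed lungs, against 458 and 735 in wild type lungs (log2 fold change -4.65 ± 0.22 SE, limma adjusted p = 2.74e-04). Ckmt2, the creatine kinase of muscle mitochondria, had 3.93 and 0.773 in floxed lungs, against 75.8 and 149 in wild type lungs (log2 fold change -2.75 ± 0.27 SE, limma adjusted p = 0.00567). Both were at the dim end of the floxed arrays. Fabp3, Pgam2 and Ckm, for fatty acid transport, glycolysis and creatine phosphate, had log2 fold changes of -1.15, -1.71 and -1.23 (limma adjusted p = 0.0134, 0.0262 and 0.0472). Mb, Ckmt2, Pgam2 and Ckm had floxed means of 7.81, 2.35, 5.81 and 13.7, under the filter intensity of 20.4. They passed the filter only through the wild type arrays, so their calls could only be lower. Of the genes that did not pass, Eno3, Idh3a and Slc25a4 had log2 fold changes of -0.76, -0.23 and -0.089, while Pdk4 and Coq8a lay above 0, at 0.093 and 0.15, with groups that overlapped. Pgam2 missed the threshold without floxed replicate 1 (limma adjusted p = 0.0732), and Ckm missed it without wild type replicate 2 (limma adjusted p = 0.0791). With the mean of all probe sets, Fabp3 had -0.50 and Ckm -0.70 (limma adjusted p = 0.109 and 0.316).

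Most markers of heart muscle were lower in floxed lungs, as Cox7a1 and Cox8b were. Of 18 tested, 13 were lower, against 0.73% of all genes, and 0 higher, against 0.997%. Among these 13, Myh6, Ryr2, Sln, Pln, Myl3 and Csrp3 had floxed means of 20.3, 16.4, 12.4, 19.3, 9.72 and 13.2. These means lay under the filter intensity of 20.4. Such genes passed the filter only through the wild type arrays, so their calls could only be lower. All 18 lay below 0 (median log2 fold change -2.04). The 5 that did not pass were Nppa, Casq2, Mybpc3, Actn2 and Myh7. The log2 fold change of Myh7 was -0.032, with groups that overlapped (limma adjusted p = 0.942). Myl2 did not pass the filter on low values, with 11.4 and 18.8 in floxed lungs, against 12.8 and 2.59 in wild type lungs. Their summed intensity, over 19, was 996 and 843 in floxed lungs, against 5766 and 8476 in wild type lungs. The atrial light chain Myl7 had 25.6 and 25.01 in floxed lungs, against 1028 and 1474 in wild type lungs (log2 fold change -4.92 ± 0.18 SE, limma adjusted p = 1.16e-04). Sarcolipin (Sln), a calcium pump regulator of the atrium, had 11.2 and 13.6 in floxed lungs, against 463 and 696 in wild type lungs (log2 fold change -4.36 ± 0.20 SE, limma adjusted p = 2.74e-04). The gap between the groups was far wider than the spread within them. Myosin genes Myh6 and Myl4 had log2 fold changes of -4.68 and -3.60, and troponins Tnnt2, Tnni3 and Tnnc1 and titin (Ttn) had -3.13, -2.99, -1.73 and -2.32. Wild type replicate 2, with the higher summed cardiac level, was also the higher wild type array for all 3 muscle isoforms. The floxed arrays did not show the same order for every isoform. Floxed replicate 1, with the higher sum, was higher for Cox6a2 and Cox7a1 but lower for Cox8b (22.2, against 27.9 on floxed replicate 2). No cardiac marker was at 0, and Myl3 had the lowest floxed mean, 9.72. In whole tissue, fewer cells of a type and less RNA per cell cannot be told apart. The part of heart muscle RNA in the fall of Cox7a1 and Cox8b was not tested.

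Markers of other tissues that can hold these isoforms were read on the same arrays. Of 15 skeletal muscle markers, 13 did not pass the filter on low values. The other 2, Acta1 and Mylpf, had log2 fold changes of -0.30 and -0.32 and did not pass the test. The summed intensity of the 15 was 165 and 149 in floxed lungs, against 203 and 218 in wild type lungs. Ucp1, the uncoupling protein that defines brown fat, did not pass the filter, with 10.9 and 9.59 in floxed lungs, against 9.06 and 6.71 in wild type lungs. Of 11 brown fat markers, 8 were tested and 3 were lower, against 0.73% of all genes. These were Cox8b, Cox7a1 and Fabp3 themselves, and none of the 5 others tested passed (median log2 fold change -0.37). Of these 5, 4 lay below 0, with log2 fold changes of -0.49 for Cidea, -0.38 for Dio2, -0.37 for Ppargc1a and -0.15 for Ppara. An unadjusted limma p under 0.05 was found for 2 of the 5, against 14.3% of all genes tested. Without the 3 called genes, the summed intensity was 423 and 431 in floxed lungs, against 462 and 478 in wild type lungs, and the brightest part of it was Prdm16, with 205 and 254 in floxed lungs, against 204 and 227 in wild type lungs.

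Of 10 general fat cell markers tested, 4 were lower, against 0.73% of all genes, and 0 higher, against 0.997%. The other 6 did not pass. The median log2 fold change was -0.53, with a sum of 647 and 704 in floxed lungs, against 1857 and 1516 in wild type lungs. Car3, a carbonic anhydrase of fat and muscle, had 12.9 and 39.1 in floxed lungs, against 805 and 586 in wild type lungs (log2 fold change -4.14 ± 0.30 SE, limma adjusted p = 0.00218). Fabp4, Adipoq and Retn had log2 fold changes of -1.13, -1.73 and -0.91. The floxed means of Adipoq and Retn, 16.6 and 15.3, lay under the filter intensity of 20.4. Both genes passed the filter only through the wild type arrays, so their calls could only be lower. Pparg, a regulator of fat cell identity, lay above 0 at 0.19 without overlap of the groups, and Lipe and Pnpla2, lipases of stored fat, lay at 0.047 and 0.087 with overlap, and none of the 3 passed (limma adjusted p = 0.562, 0.944 and 0.806). Retn missed the threshold at a pseudocount of 64 (limma adjusted p = 0.0560), and also without floxed replicate 1, without floxed replicate 2 and without wild type replicate 1 (limma adjusted p = 0.0541, 0.0634 and 0.0977). Smooth muscle markers had 2 of 8 lower, Acta2 (-0.78) and Myh11 (-1.14), against 0.73% of all genes. In all, 6 lay below 0 and 2 above, Smtn (0.077) and Mylk (0.049), these 2 with groups that overlapped. The sum was 4438 and 4045 in floxed lungs, against 5422 and 6206 in wild type lungs. Acta2 missed the threshold with any 1 array left out (limma adjusted p from 0.0545 to 0.147). Myh11 missed it without floxed replicate 1, without floxed replicate 2 and without wild type replicate 2 (limma adjusted p = 0.0580, 0.0997 and 0.102), and both missed it with a replicate block. With no filter on low values, Fabp3, Pgam2, Ckm, Fabp4, Adipoq, Retn, Acta2 and Myh11 missed the threshold, with limma adjusted p from 0.0644 for Fabp4 to 0.160 for Ckm. At a pseudocount of 1, Fabp3, Pgam2, Ckm, Acta2 and Myh11 missed it, with limma adjusted p from 0.0505 for Fabp3 to 0.167 for Ckm. Ckm and Myh11 missed it after quantile normalization (limma adjusted p = 0.0576 and 0.0517), and Acta2 and Myh11 with the mean of all probe sets (limma adjusted p = 0.404 and 0.0527).

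Leukocyte markers had 3 of 7 higher, against 0.997% of all genes. These were Marco of alveolar macrophages, Jchain of plasma cells and Nkg7 of cytotoxic cells, with log2 fold changes of 1.80, 3.79 and 1.22. The 4 others, Ptprc, Lyz2, Cd68 and Ms4a1, did not pass, and Ms4a1 of B cells lay below 0 at -0.44 without overlap. The summed intensity was 22590.0 and 21048 in floxed lungs, against 12493 and 13371 in wild type lungs. Most of it came from Lyz2 (13596 and 11956, against 10604 and 10971) and Jchain (6470 and 6874, against 324 and 673). Nkg7 missed the threshold without floxed replicate 1 and without wild type replicate 2 (limma adjusted p = 0.0633 and 0.0569). It also missed it with no filter and at a pseudocount of 1 (limma adjusted p = 0.114 and 0.0780). The part of fat, smooth muscle and leukocyte RNA in the results on the members was not tested.

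**Figure D5:**
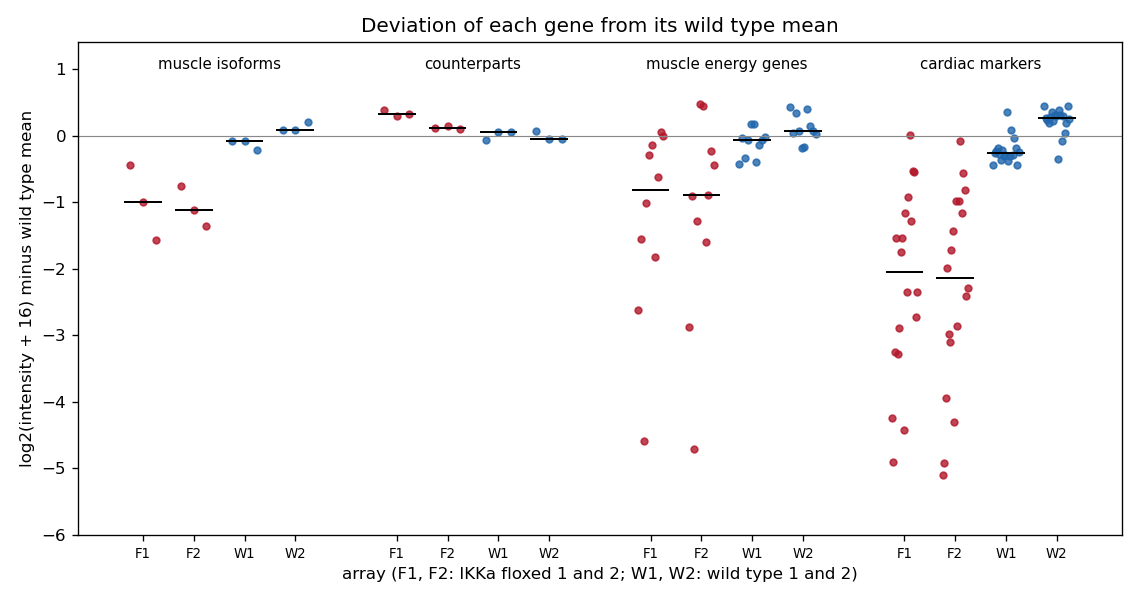
Difference of log2(intensity + 16) from the wild type mean of each gene, by array, for the 3 muscle isoforms, their 3 counterparts, 10 muscle energy genes and 18 cardiac markers; F1 and F2 are the IKKa floxed and W1 and W2 the wild type replicates, and black lines are medians. The medians of the muscle isoforms, energy genes and cardiac markers lie below 0 on both floxed arrays, and those of the counterparts above 0.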

How the data were processed

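Intensity values are used as deposited by the authors, 1 per probe set and array for 45101 probe sets on a linear scale. Affymetrix Expression Console is listed, per the submitters' processing notes, with no version or role, and the summary method is not known here. With 2% trimmed from each end, every array has a mean of 150.001, so values had been scaled before deposit, and array medians differed by at most 0.0646 on the log2 scale. Of the probe sets, 34945 had 1 symbol in the platform annotation, and 34741 matched RefSeq (GRCm38.p6) by Entrez number, with 0 symbols changed. Array controls were left out, and Chuk, the gene of IKKα, is not analysed here.

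Intensities were transformed as log2(intensity + 16). Genes below the 30th percentile of mean log2 level (intensity 20.4) were left out, which kept 12735 of 18193. Both groups of 2 entered a limma fit (version 3.58.1, R 4.3.3; lmFit and eBayes) with no covariate, two-sided, with Benjamini-Hochberg adjustment over all genes tested and a threshold of 0.05. There were 2 residual and 4.78 prior degrees of freedom, and intervals are at 95%. The number of arrays limits the precision. The procedure was tested on simulated data with independent noise for each gene and array. The simulation held no shift shared by the genes of an array. Members, lists, motifs and the naming rule were chosen with earlier results of these data known. The rule names the tissue isoforms and counterparts, members called, the 2 lowest, the 2 highest and the brightest of each complex, members with probe sets on both sides of 0, and of each list up to 8 called genes or else the 2 leading ones. Ndufa1, Ndufb11, Ucp1, Myl3 and the members at low values are named as context, after their values were seen. Alternatives were 2 other pseudocounts, no filter, quantile normalization, an intensity trend with a robust prior, the mean of all probe sets, a replicate block, each array left out and, chosen after seeing the data, the probe set with the highest untransformed mean. Fits with an array left out keep the probe sets and filter of the full fit and assume that a lone sample varies like the other group.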

Additional observations from a re-analysis of the deposited data

How the results depend on the processing

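Over all genes there were 220 calls, with 103 at a pseudocount of 1, 360 at a pseudocount of 64, 69 with no filter on low values, 384 when the prior followed intensity and was robust, and 146 to 248 with an array left out, the lowest without wild type replicate 2. Members lower in floxed lungs numbered 2, with 0 without the filter, when more genes were tested, and 1 to 3 with an array left out. The 1 arose without wild type replicate 2, when Cox7a1 missed the threshold, and the 3 without floxed replicate 2, when Ndufa4l2 passed. Members higher numbered 0 under each of the 12 alternatives. Without the filter Cox7a1 (-1.05) and Cox8b (-1.46) had limma adjusted p of 0.0697 and 0.0671. With an array left out Cox8b ranged from -1.67 to -1.25, Cox7a1 from -1.14 to -0.96, Cox6a2 from -0.76 to -0.44 and the median of the other members from -0.018 to 0.16. The mean of probe sets gave Cox6a2 -0.86 (limma adjusted p = 0.0188). The 3 differences between isoform and counterpart kept their sign with other pseudocounts, quantile normalization, the mean of probe sets and each array left out. Small values changed sign. Quantile normalization gave -0.019 for Sdha, -0.068 for Uqcrb and -0.030 for Slc25a3, which had -0.15 with the mean of probe sets. With an array left out, the range was -0.13 to 0.23 for Cox4i2, -0.12 to 0.25 for Cox8c, -0.53 to 0.066 for Atp5md, -0.0047 to 0.070 for Ndufaf1, -0.037 to 0.074 for Sdha, -0.039 to 0.16 for Sdhb, -0.084 to 0.14 for Sdhc, -0.23 to 0.074 for Sdhd and -0.68 to 0.072 for Acta1. The cause was not tested. Of 28 named genes called, 17 kept direction and call under all alternatives. The labels do not pair the replicate numbers, and deviations of same-numbered arrays correlated at -3.34e-04 across genes. With a replicate block there were 188 calls and 2 members lower. Only 2 arrays a group limit what can be detected, and dim probe sets such as that of Cox8b have no stated floor.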
